A study of Mus musculus with 2 samples.

Results

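The genes described here are those whose symbol is Zfp followed by a number, the mouse name for a large set of zinc finger genes. *Zfp36* was left out of the set, since it encodes an RNA-binding protein with another kind of finger. A gene was kept when its FPKM (a level counted in sequenced fragments and scaled to transcript length and library depth) was at least 1 in control or in Eomes-overexpressing cells. Of 338 such symbols listed, 203 met this minimum, among 9925 genes that met it and 14732 symbols listed in all. Members were thus selected on their FPKM in the same 2 libraries that are compared: 178 of the 203 genes were at 1 or more in both libraries, 20 passed only through the Eomes library and 5 only through the control library. The 20 genes that passed only through the Eomes library had to be higher there, and their median log2 ratio was 0.42.

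The study asked how high levels of Eomes, a T-box transcription factor, change gene expression in CD8+ T cells. Both cultures came from C57BL/6 OT-I transgenic mice aged 6 to 8 weeks, whose T cell receptor recognizes the ovalbumin peptide SIINFEKL. CD8+ cells from spleen and lymph nodes were activated for 24 h with 2.5 ng/mL peptide and 10 U/mL IL-2, transduced with the retroviral vector RVKM carrying human CD2 alone (control) or Eomes and human CD2, sorted for human CD2 after 48 h, and restimulated at 40000 cells per well with the same doses for 3 days. One library was sequenced from each culture, so no difference between the conditions can be set against replicates, and no test was made. *Eomes* itself was at an FPKM of 2.47 with the empty vector and 129.6 with Eomes. The latter value includes transcripts of the vector, which were not told apart from those of the cell's own gene. Of 7 genes that mark CD8+ T cells, 6 were listed at 1 or more in both libraries and *Trac* was not listed. Each of the 6 was lower with Eomes, and their summed FPKM was 1243.43 with the empty vector and 890.83 with Eomes. *Cd8a* was at 181.81 and 99.10. The summed FPKM of 14 genes that mark B cells, myeloid cells, CD4+ T cells, natural killer cells or stroma was 6.14 with the empty vector and 10.06 with Eomes. *Klrb1c*, a natural killer receptor gene, held 0.31 and 5.74 of these sums, whereas *Ms4a1*, *Lyz2*, *Csf1r* and *Ncr1* were listed in neither library. The part of such cells in the values below was not tested, and in bulk RNA fewer cells of a type and less RNA per cell cannot be told apart.

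Zinc fingers of the C2H2 type are short loops in which a pair of cysteines and a pair of histidines hold a zinc ion. They usually stand in tandem rows, and each finger touches a few bases of DNA. Many Zfp proteins also carry a KRAB domain, which recruits Trim28 (KAP1). Trim28 in turn brings Setdb1 and HP1 proteins, which lay down and bind repressive histone H3 lysine 9 methylation, and many KRAB zinc finger proteins silence transposable elements in this way. KRAB genes arose by repeated duplication and often lie next to each other on a chromosome.

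A KRAB domain was found in the annotated proteins of 96 of the 203 genes, and 103 had C2H2 fingers with no KRAB match. The other 4, *Zfp330*, *Zfp365*, *Zfp703* and *Zfp839*, had neither a KRAB match nor a match to the C2H2 spacing used here. Genes with a KRAB match had a median of 11 fingers, and C2H2 genes without one had 7. The largest number was 36, in *Zfp142*. To show what these genes are made of, 84 bases of coding sequence are given for 6 of them, read on the coding strand of mm10 from GENCODE transcripts. Each run spans 1 finger and the linker to the next, and the capitals mark the codons of the 2 cysteines and 2 histidines. The first 3 are from the genes with the highest log2 ratio, and the last 3 from those with the lowest, among genes at 1 or more in both libraries that held such a stretch with the family's conserved linker.
Zfp958, chr8:4628541-4628624, plus strand, exon 4 of 4: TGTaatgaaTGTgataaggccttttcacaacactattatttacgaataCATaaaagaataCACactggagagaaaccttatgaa
Zfp971, chr2:178033006-178033089, plus strand, exon 4 of 4: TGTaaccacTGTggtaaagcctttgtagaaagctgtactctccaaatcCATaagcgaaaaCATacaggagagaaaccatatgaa
Zfp984, chr4:147755508-147755591, minus strand, exon 4 of 4: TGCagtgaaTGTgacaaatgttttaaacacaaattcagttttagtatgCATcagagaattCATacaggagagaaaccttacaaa
Zfp1, chr8:111669901-111669984, plus strand, exon 4 of 4: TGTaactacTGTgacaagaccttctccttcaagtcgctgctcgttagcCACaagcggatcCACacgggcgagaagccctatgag
Zfp672, chr11:58316717-58316800, minus strand, exon 5 of 5: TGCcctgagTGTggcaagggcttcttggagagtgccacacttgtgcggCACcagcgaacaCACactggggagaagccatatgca
Zfp775, chr6:48619509-48619592, plus strand, exon 3 of 3: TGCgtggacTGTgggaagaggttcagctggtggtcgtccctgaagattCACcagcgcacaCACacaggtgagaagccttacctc

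The finger frame is the same in all 6, and the bases between the capitals differ. The stretches of *Zfp958* and *Zfp971* shared 61 of 84 bases, and those of *Zfp958* and *Zfp775* shared 41. These were the most and the fewest among pairs of the 6. The stretch of *Zfp971* shared 52 bases with that of *Zfp984*, 51 with that of *Zfp1* and 51 with that of *Zfp672*. Their GC content was 31.0%, 39.3% and 32.1% in the first 3 and 53.6%, 58.3% and 57.1% in the last 3. Over the same genes, a stretch of this form was found in 63 genes with a KRAB match, with a median GC content of 42.9%, and in 34 genes without one, with 56.0%. It lay in the last exon in 90 of these 97 genes.

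The Zfp genes were slightly higher in Eomes-overexpressing cells. Their median log2 ratio (Eomes-overexpressing over control) was 0.107, with quartiles of -0.06 and 0.32. The ratio was above 0 in 132 of 203 genes (65.0%), against 49.2% of all 9925 expressed genes, and below 0 in 70 (34.5%), against 50.5%. One gene, *Zfp810*, had the same FPKM of 1.03 in both. The median over the 9722 other expressed genes was -0.0058. Each Zfp gene was also set against the 100 other genes nearest to it in mean FPKM, and the median of these differences was 0.123. That value includes the genes that passed the minimum only through the Eomes library. With a minimum of 1 in both libraries the median difference was 0.090. Among the 178 genes at 1 or more in both libraries the median log2 ratio was 0.085, with 112 above 0 (62.9%), against 49.7% of all 9562 genes at that level in both.

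Most of these differences were small. A ratio over 1.5-fold higher was seen in 15 genes (7.39%), against 2.44% of expressed genes, and over 1.5-fold lower in 4 (1.97%), against 5.16%. Of the 15, 8 were under 1 in control and passed the minimum only through the library where they are high. Among genes at 1 or more in both libraries, 7 of 178 Zfp genes (3.93%) were over 1.5-fold higher, against 1.79% of 9562 expressed genes, and 2 (1.12%) lower, against 3.75%. The other 184 genes lay within 1.5-fold, with *Zfp638* and *Zfp599* at exactly that ratio. By approximate reads (median 225 with the empty vector and 244 with Eomes), the counting interval of the ratio lay wholly above 0 in 56 genes (27.6%), against 27.2% of all expressed genes. It lay wholly below 0 in 21 (10.3%), against 26.8%. Whether an interval excludes 0 also depends on the number of reads. The median of the mean FPKM was 3.3 in the Zfp genes and 12.9 in all expressed genes. These shares therefore mix direction with level, and were not compared among genes of similar FPKM. These 95% intervals cover counting error only, not the spread between cultures.

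**Figure D1:**
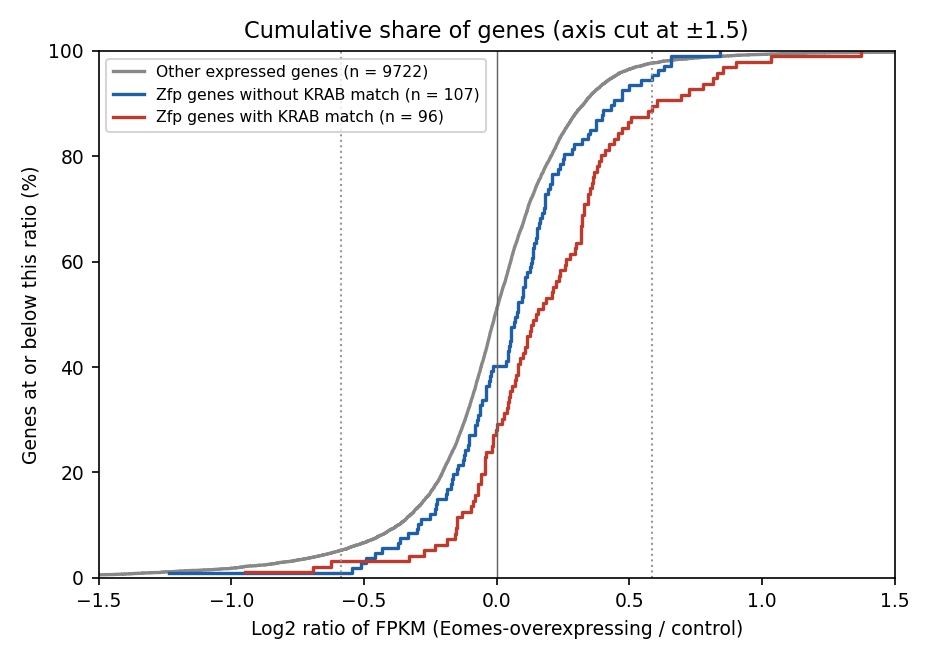
Cumulative share of genes (y axis, percent) at or below each log2 ratio of FPKM (x axis, Eomes-overexpressing over control) for Zfp genes with a KRAB match (red), Zfp genes without one (blue) and the 9722 other expressed genes (grey); dotted lines mark 1.5-fold. Both Zfp curves lie to the right of the grey one around 0, and the red one has the longer upper tail, with 10 of 96 genes over 1.5-fold higher, 7 of them under 1 in control.

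The medians were higher at low than at high levels. In the 58 Zfp genes with a mean FPKM under 2 the median log2 ratio was 0.24, and in 945 other genes of that range it was -0.06. From 2 to 5 it was 0.15 in 71 Zfp genes and 0.012 in 1497 others. From 5 to 10 it was 0.027 in 44 Zfp genes and 0.026 in 1639 others, so the medians were the same to 2 decimals. At 10 or more it was 0.049 in 30 Zfp genes and -0.0092 in 5641 others. The lowest class holds the genes that passed the minimum only through the Eomes library, so it was also described for genes at 1 or more in both libraries: the median was then 0.11 in 33 Zfp genes and 0.0 in 613 others, and the 2 to 5 class was the highest, at 0.15. None of the 15 genes over 1.5-fold higher had a mean FPKM of 10 or more.

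Genes with a KRAB match made up 10 of the 15 higher genes, but 7 of these 10 were under 1 in control and entered the set through the Eomes library alone. Among the 7 higher genes at 1 or more in both libraries, 3 were KRAB genes, or 3 of 72 KRAB genes (4.17%) against 4 of 106 others (3.77%). The median FPKM of the KRAB genes was 1.94 with the empty vector and 2.29 with Eomes, and their median log2 ratio was 0.15. The ratio was above 0 in 68 of 96 (70.8%), against 49.2% of all expressed genes. *Zfp808* on chromosome 13 was at 0.51 with the empty vector and 1.32 with Eomes, a log2 ratio of 1.37 (counting interval 0.68 to 2.07) from about 26 and 66 reads. It had the highest ratio of the 203 genes, but 46.4% of the 50-base stretches of its transcripts are also found in transcripts of other genes, so its reads may be divided uncertainly. *Zfp81* on chromosome 17 was at 0.89 and 1.82, a log2 ratio of 1.03 (0.71 to 1.37) from about 116 and 236 reads, and shared only 0.30% of its stretches. These were the 2 Zfp genes over 2-fold higher.

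A further 3 KRAB genes passed 1.5-fold at 1 or more in both libraries. *Zfp958* on chromosome 8, whose finger is shown above, was at 1.55 with the empty vector and 2.80 with Eomes (log2 ratio 0.85, interval 0.43 to 1.29). *Zfp971* on chromosome 2 was at 2.26 and 3.98 (0.82, interval 0.36 to 1.29). *Zfp984* on chromosome 4 was at 1.96 and 3.24 (0.73, interval 0.37 to 1.09). *Zfp958* shared 0.65% of its stretches with other genes, while *Zfp971* shared 42.4% and *Zfp984* 57.4%, so the values of the latter pair are less certain. The remaining 5 KRAB genes, *Zfp160*, *Zfp942*, *Zfp51*, *Zfp709* and *Zfp992*, were over 1.5-fold higher as well, with control values between 0.59 and 0.79 and Eomes values between 1.02 and 1.25. *Zfp992* shared 43.7% of its stretches.

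The 5 higher genes without a KRAB match included the best measured ones. *Zfp512* on chromosome 5 was at 6.10 with the empty vector and 10.93 with Eomes, a log2 ratio of 0.84 (interval 0.67 to 1.02) from about 423 and 751 reads. *Zfp652* on chromosome 11, a repressor that works with the corepressor CBFA2T3, was at 6.73 and 10.60, a log2 ratio of 0.66 (0.56 to 0.75) from about 1383 and 2157 reads. Both shared under 1% of their stretches with other genes, and they were the 2 genes still over 1.5-fold higher when a minimum FPKM of 5 was asked for. *Zfp800* was at 3.12 and 4.76 (0.61, interval 0.38 to 0.84), *Zfp3* at 1.80 and 2.79 (0.63, interval 0.19 to 1.08) and *Zfp292* at 0.83 and 1.31 (0.66, interval 0.37 to 0.95). *Zfp638*, known as NP220, takes part in the silencing of unintegrated retroviral DNA. It was chosen for mention after its values were seen, and stood at exactly 1.5-fold, with 2.30 with the empty vector and 3.45 with Eomes.

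**Figure D2:**
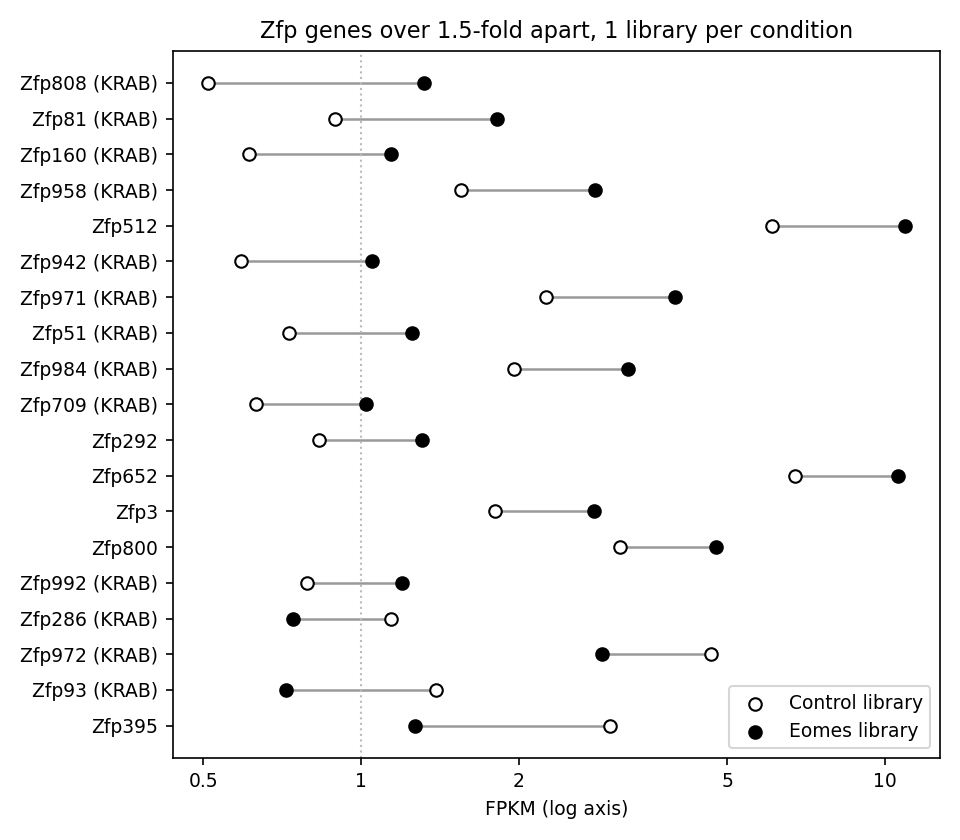
FPKM (x axis, log scale) of the 19 Zfp genes over 1.5-fold apart in the control library (open circles) and the Eomes library (filled circles), ordered by log2 ratio, with KRAB genes marked. The 15 upper genes are higher in the Eomes library, 8 of them from a control value left of the dotted line at 1, and the 4 lowest rows, ending with Zfp395, are lower there.

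Only 4 Zfp genes were over 1.5-fold lower in Eomes-overexpressing cells. *Zfp395* on chromosome 14, whose human counterpart binds the promoter of the huntingtin gene, was at 2.99 with the empty vector and 1.27 with Eomes, a log2 ratio of -1.24 (interval -1.57 to -0.90) from about 249 and 105 reads. It was the only Zfp gene over 2-fold lower, and its GC content of 54.4% is above the median of the set. *Zfp93* was at 1.39 and 0.72 (-0.95, interval -1.48 to -0.44) and *Zfp286* at 1.14 and 0.74 (-0.62, interval -1.21 to -0.07). *Zfp972*, a short KRAB transcript of 561 bases, was at 4.65 and 2.88, and its interval of -1.34 to 0.0079 included 0. *Zfp93* and *Zfp972* shared 20.7% and 48.4% of their stretches with other genes. Of the 4 genes with neither a KRAB nor a C2H2 match, none was above 0 or past 1.5-fold, with log2 ratios of -0.01 for *Zfp330*, -0.30 for *Zfp703*, -0.49 for *Zfp365* and -0.51 for *Zfp839*. The KRAB genes *Zfp972* and *Zfp935* also had no C2H2 match, and *Zfp935* was at 0.08.

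The most highly expressed Zfp genes lay close to a ratio of 1. *Zfp207*, whose protein (BuGZ) binds kinetochores and helps chromosomes align, was by far the highest, at 79.16 with the empty vector and 94.08 with Eomes (log2 ratio 0.25, interval 0.20 to 0.30). The next were *Zfp706*, at 36.37 and 38.48, *Zfp598*, at 35.24 and 39.00, and *Zfp622*, at 36.54 and 34.72. *Zfp598* encodes a ubiquitin ligase that marks collided ribosomes, and *Zfp622* a maturation factor of the large ribosomal subunit. *Zfp106*, *Zfp330*, *Zfp593*, *Zfp511*, *Zfp384* and *Zfp91* followed, at 21.32 to 28.14 in control. Of these 10 genes, 6 were above 0 and 4 below, from -0.12 in *Zfp384* to 0.25 in *Zfp207*. Centring by GC content took *Zfp207* to 0.060, *Zfp706* to -0.067 and *Zfp622* to -0.22.

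A list of 25 Zfp genes with a role known from other work held 22 of the 203. The median log2 ratio of these 22 was 0.20 as deposited, which centring by GC content took to 0.069. It was above 0 in 17 and below in 5, where 49.2% of all expressed genes were above 0, and *Zfp292* alone passed 1.5-fold. *Zfp683* (Hobit), a factor of tissue-resident T cells, was listed in neither library, and *Zfp57* and *Zfp532* were below the minimum. Among the repressors of mobile elements and imprinted genes, *Zfp809*, which recognizes the primer binding site of murine leukaemia viruses, was at 5.69 with the empty vector and 7.34 with Eomes (0.37, interval 0.10 to 0.64). *Zfp568*, which represses a placental transcript of *Igf2*, was at 3.05 and 4.05 (0.41, interval 0.22 to 0.60). *Zfp445*, which protects imprints, was at 5.73 and 6.38 (0.16, interval 0.0047 to 0.30). All 3 carry a KRAB domain, and their intervals were above 0. After centring by GC content their log2 ratios were 0.28, 0.35 and 0.0069, so the difference of *Zfp445* was near 0.

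Several activators and promoter-binding factors of the list had ratios above 0 as deposited, most of which shrank on centring by GC content. *Zfp148* was at 2.63 with the empty vector and 3.72 with Eomes (0.50, interval 0.33 to 0.67), and *Zfp131*, a BTB-domain factor, was at 8.08 and 10.30 (0.35, interval 0.18 to 0.52). *Zfp143*, which binds many promoters, was at 5.97 and 6.89, and *Zfp281* at 3.53 and 3.99, with intervals that included 0. *Zfp410*, an activator of the chromatin remodeller gene *Chd4*, was at 14.81 and 15.27, and *Chd4* itself was at 121.64 and 119.33. *Zfp326*, which links transcript elongation to splicing, was at 5.53 and 6.76 (0.29, interval 0.12 to 0.46), and *Zfp451*, a SUMO ligase, was at 4.91 and 5.98 (0.28, interval 0.17 to 0.40). *Zfp644*, a partner of the H3 lysine 9 methyltransferases Ehmt1 and Ehmt2, was near the minimum in both libraries, at 1.05 and 1.24. After centring by GC content the log2 ratios were 0.29 for *Zfp148*, 0.10 for *Zfp143*, 0.090 for *Zfp131*, 0.074 for *Zfp451*, 0.030 for *Zfp326* and 0.029 for *Zfp281*. Those of *Zfp410* (-0.064) and *Zfp644* (-0.020) turned below 0.

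The genes of the list with a known role in lymphocytes lay within 1.5-fold. *Zfp335*, needed for naive T cells to mature, was at 13.71 with the empty vector and 14.47 with Eomes (0.08, interval -0.04 to 0.19). *Zfp91*, a ubiquitin ligase of non-canonical NF-κB signalling, was at 21.32 and 24.21 (0.18, interval 0.10 to 0.26). *Zfp318*, which sustains IgD expression in B cells, was at 1.17 and 1.0 (-0.23, interval -0.47 to 0.02). *Zfp217*, *Zfp687* and *Zfp592*, which take part in corepressor complexes, were between -0.07 and -0.02, each with an interval that included 0.

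At the minimum itself, the genes just inside were *Zfp597*, at 0.98 with the empty vector and 1.02 with Eomes, *Zfp709*, at 0.63 and 1.02, *Zfp433*, at 0.93 and 1.03, *Zfp810*, at 1.03 in both, and *Zfp26*, at 0.97 and 1.04. Just outside were *Zfp120*, at 0.67 and 0.99, *Zfp39*, at 0.98 and 0.95, *Zfp938*, at 0.98 and 0.86, and *Zfp799*, at 0.87 and 0.98.

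Within the set, GC-rich transcripts had lower ratios than GC-poor ones. Under 40% GC, 30 of 33 Zfp genes (90.9%) were above 0, with a median log2 ratio of 0.36, against 84.2% of 506 other expressed genes. Among these 33 were 10 of the 15 Zfp genes over 1.5-fold higher, where 35 of the 506 others were. The 10 include the 7 higher KRAB genes that were under 1 in control and passed the minimum only through the Eomes library. The median was 0.19 in the 58 genes from 40% to 45%, 0.098 in the 42 from 45% to 50%, -0.054 in the 34 from 50% to 55% and -0.041 in the 36 at 55% or more. Other expressed genes fell at every step, with medians of 0.25, 0.15, 0.032, -0.071 and -0.096. In each of the 5 ranges the Zfp median was above that of the other genes. Across genes, which share 2 libraries and are not independent, Spearman's rho of log2 ratio with GC content was -0.55 in the Zfp genes and -0.42 in the others.

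**Figure D3:**
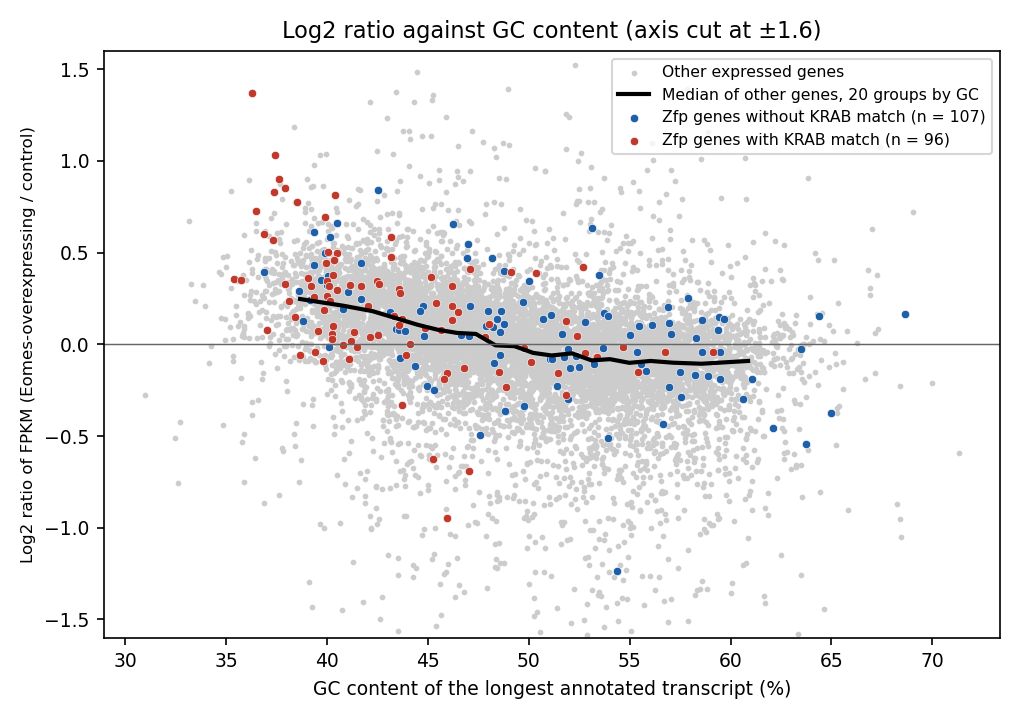
Log2 ratio of FPKM (y axis, Eomes-overexpressing over control, cut at 1.6 either way) against GC content of the longest annotated transcript (x axis, percent) for Zfp genes with (red, n = 96) and without (blue, n = 107) a KRAB match and other expressed genes (grey); the black line joins medians of the other genes in 20 groups by GC content. The line falls from left to right, and most red points lie at the left, where it is above 0.

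The Zfp genes with a KRAB domain had a low GC content. The median was 42.5% in them, 51.0% in the C2H2 genes without KRAB and 49.8% in other expressed genes, and 62 of the 96 KRAB genes were under 45%. The median of all expressed genes of similar GC content was then taken off each ratio. This took the median of the 203 genes from 0.107 to 0.061. The centred ratio was above 0 in 117 of the 203 (57.6%), against 4915 of 9835 expressed genes. After centring, 8 genes were over 1.5-fold higher and 4 lower. The share of all expressed genes past 1.5-fold after centring is not given here. The 8 were *Zfp808*, *Zfp81*, *Zfp3*, *Zfp512*, *Zfp160*, *Zfp971*, *Zfp652* and *Zfp958*, with centred log2 ratios from 1.11 to 0.59. Of these, *Zfp808*, *Zfp81* and *Zfp160* were under 1 in control and passed the minimum only through the Eomes library. The median of the KRAB genes went from 0.15 to 0.055, and that of the C2H2 genes without KRAB from 0.081 to 0.064. Against the 100 genes nearest in both GC content and mean FPKM, the median difference was 0.057 over all Zfp genes, 0.073 in the KRAB genes and 0.051 in the rest. *Zfp395* stayed at -1.16 after centring.

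Neighbouring Zfp genes were looked at next. Groups of 5 or more of the 203 genes with no gap over 1 Mb between them numbered 9 and held 66 genes, and 56 of the 203 genes lie on chromosome 7. The group with the highest median was on chromosome 17 (chr17:21008903-22361400 in mm10). It holds 9 KRAB genes (*Zfp160*, *Zfp54*, *Zfp51*, *Zfp53*, *Zfp52*, *Zfp983*, *Zfp942*, *Zfp994* and *Zfp944*), with a median log2 ratio of 0.33, 3 of them over 1.5-fold higher and 3 below 0. The 3 higher genes, *Zfp160*, *Zfp942* and *Zfp51*, were under 1 in control, as was *Zfp54*. These genes passed the minimum only through the Eomes library and had to be higher there, which raises the group median. The median GC content of the group was 38.7%, and its centred median 0.067. On the same chromosome, 6 genes at chr17:32765496-33631779 including *Zfp81* had a median of 0.20, and 0.14 after centring.

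On chromosome 7, 11 genes at chr7:29768552-30169750, *Zfp568* among them, had a median of 0.21, with 8 above 0 and none over 1.5-fold, and 0.16 after centring. A second group on that chromosome, 6 genes without KRAB at chr7:4915217-5053723 with a median GC content of 61.2%, had a median of -0.10, and -0.0026 after centring. The 10 genes at chr7:127233061-127885996 had a median of -0.06. Members of a group often differed among themselves: at chr7:24081924-25227507 the log2 ratios of 7 genes ran from -0.95 in *Zfp93* to 0.42.

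**Figure D4:**
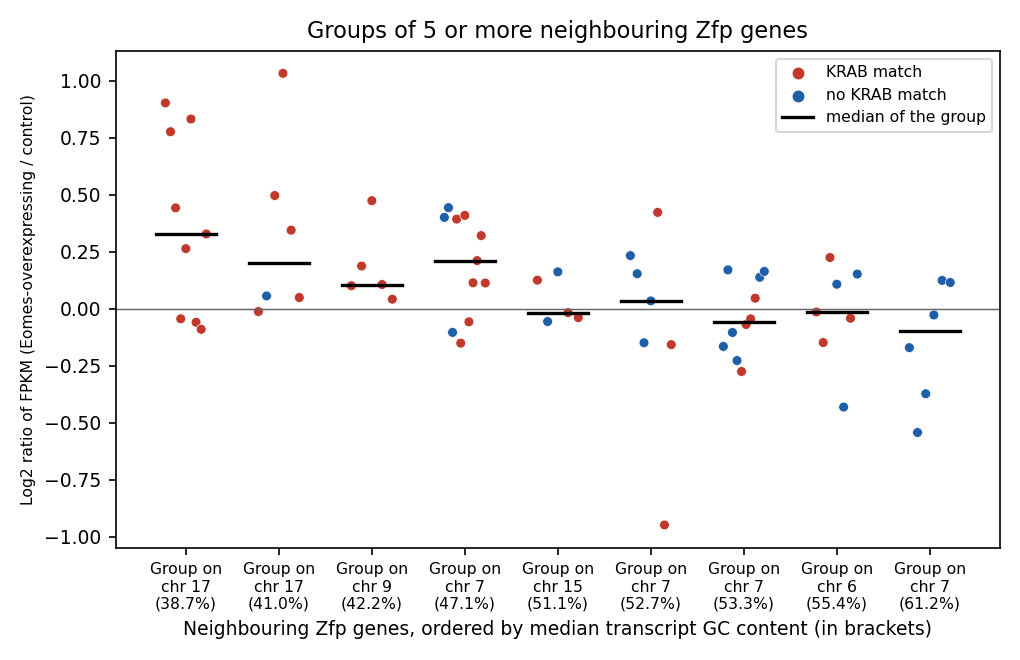
Log2 ratios of FPKM (y axis, Eomes-overexpressing over control) of the 66 Zfp genes in 9 groups of neighbouring genes, ordered along the x axis by median transcript GC content (38.7% to 61.2%); points are genes, red with and blue without a KRAB match, and bars are group medians. The medians are highest in the groups at the left, which are mostly KRAB genes, and lowest at the right. The leftmost group includes genes that passed the minimum only through the Eomes library.

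The partners through which KRAB proteins act were mostly well expressed. All 24 genes of a list of KRAB and heterochromatin partners were expressed, and their median log2 ratio was 0.11 (0.093 after centring by GC content). Of the 24, 17 (70.8%) were above 0, against 49.2% of all expressed genes. *Trim28*, the direct partner of the KRAB domain, was at 181.84 with the empty vector and 196.74 with Eomes (0.11, interval 0.08 to 0.15), far above every Zfp gene in level. *Setdb1*, its H3 lysine 9 methyltransferase, was at 21.11 and 20.49, and *Atf7ip*, which stabilizes Setdb1, was at 9.28 and 8.29 (-0.16, interval -0.27 to -0.05). *Mphosph8*, a subunit of the HUSH silencing complex, was at 5.44 and 8.40 (0.63, interval 0.42 to 0.84). It was the only 1 of the 24 partner genes over 1.5-fold, where 2.44% of all expressed genes were over 1.5-fold higher. After centring by GC content it was at 0.44, under 1.5-fold. The other HUSH subunits, *Fam208a* (TASOR) and *Pphln1*, were at 0.76 and 1.06 and at 13.78 and 14.88. The HP1 genes *Cbx3* (0.43), *Cbx5* (0.34) and *Cbx1* (0.21) had counting intervals above 0, and were at 0.17, 0.16 and 0.10 after centring by GC content.

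As deposited, families of zinc finger genes with other names gave lower medians. The median log2 ratio was 0.051 in 32 Zbtb genes, with 19 above 0, 0.063 in 13 Zc3h genes, and -0.015 in 15 Zscan and Zkscan genes, which turned to 0.016 when each library was scaled by its summed FPKM. After centring by GC content the medians were 0.038, 0.080 and -0.051 in the same order, so that of the Zc3h genes was then above the Zfp median of 0.061. No gene of these 60 was over 1.5-fold higher, and *Zbtb18* (-0.77) and *Zc3h12d* (-0.87), named after their values were seen, were over 1.5-fold lower. Over all expressed genes these shares were 2.44% and 5.16%, so in 60 genes only a few would be past 1.5-fold at those shares. The counting interval lay wholly above 0 in 7 of the 13 Zc3h genes (53.8%), against 27.2% of all expressed genes. It did so in 6 of the 32 Zbtb genes (18.8%) and in 2 of the 15 Zscan and Zkscan genes (13.3%). The median of the mean FPKM was 21.1 in the Zc3h genes, 4.4 in the Zbtb genes and 3.4 in the Zscan and Zkscan genes. Intervals are narrower at higher levels, so these shares are not alike. A KRAB match was also found in 22 expressed genes whose symbol is not Zfp and a number alone, a group formed after the data were seen. It includes *Zkscan5*, counted above, and 4 genes with a letter after a Zfp number, such as *Zfp955b*. The median log2 ratio of the 22 was 0.26, with 17 (77.3%) above 0, against 49.2% of all expressed genes. Their median GC content was 41.3%, and their centred median was 0.060, next to 0.055 in the 96 KRAB genes of the set.

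**Figure D5:**
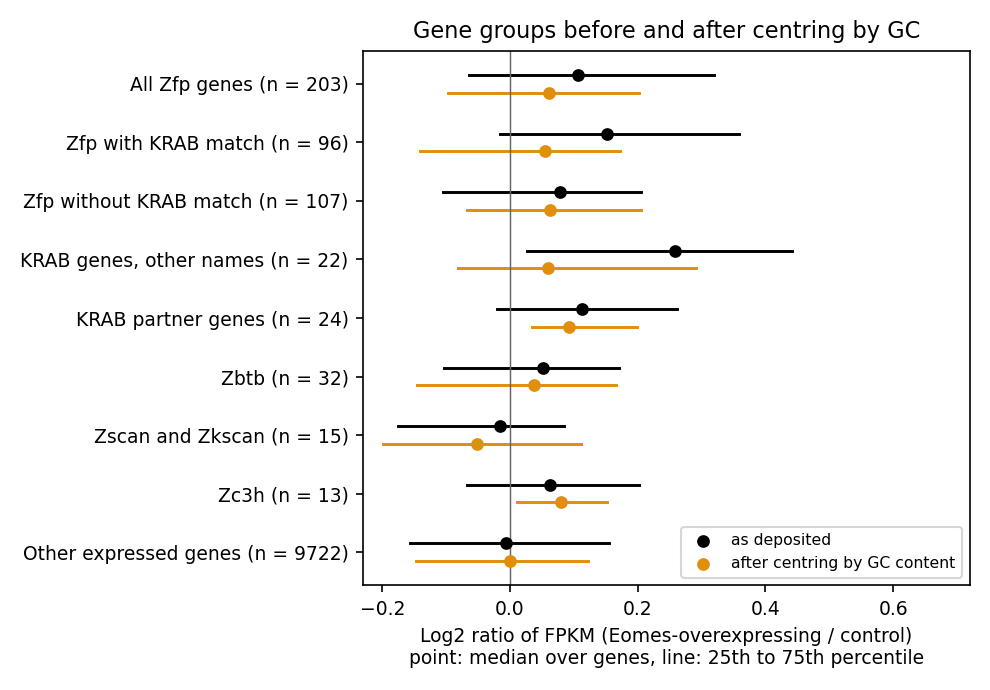
Median (points) and 25th to 75th percentile (lines) of the log2 ratio of FPKM (x axis, Eomes-overexpressing over control) over the genes of each group, as deposited (black) and after centring by GC content (orange). The 203 Zfp genes move from 0.107 to 0.061 and the 96 with a KRAB match from 0.15 to 0.055, while the lines of the groups overlap throughout.

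The promoters were searched for the T-box letters AGGTGTGA or their reverse complement TCACACCT, since Eomes is a T-box factor. Promoters here are the 250 bases before and 50 after a gene's start, from RefSeq on GRCm38.p6, and 168 of the 203 genes had one. The letters were in 3 of 210 Zfp promoters (1.43%), against 1.28% of 32851 promoters of all genes. The matches are printed with 15 bases on either side, on the gene's strand, with the matching letters in capitals.
Zfp956, chr6:47953245-47953282, plus strand: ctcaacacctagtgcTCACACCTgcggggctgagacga
Zfp688, chr7:127422190-127422227, minus strand: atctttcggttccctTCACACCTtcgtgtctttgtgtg
Zfp827, chr8:79028358-79028395, plus strand: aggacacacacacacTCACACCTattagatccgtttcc

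The log2 ratios of these 3 genes were 0.15 in *Zfp956*, -0.28 in *Zfp688* and 0.34 in *Zfp827*, and none of the 19 genes over 1.5-fold apart held the letters in the promoters searched. The letters are in only 1.28% of all promoters, so finding none in 19 genes says little. How many of the 19 had a promoter is not given here. The paper reports most Eomes binding in introns or between genes, mostly far from gene starts, which these short promoters do not cover. A match describes letters and not binding.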

How the data were processed

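RNA of 1 control and 1 Eomes-overexpressing culture was sequenced on an Illumina HiSeq instrument. The authors filtered reads with SOAPnuke, mapped them to mm10 with HISAT and Bowtie2 and computed expression with RSEM; versions are not given in the sources used here. They deposited FPKM values (RPKM in their methods) with 2 decimals, from 0.01 upward, and no scaling between libraries is stated. Symbols turned into dates (20 and 19) were left out.

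Values not listed were set to 0.01 for log2 ratios. GENCODE M21 gave positions, and the longest transcript of each gene gave length and GC content. KRAB domains were scored over 36 residues with a profile from 190 Zfp proteins (over 20 bits), and C2H2 fingers by the spacing of 2 cysteines and 2 histidines, over all isoforms. The steps of low FPKM values placed the depth near 19700000 and 19500000 reads, from 126 and 134 genes, which gave approximate reads and exact 95% (Clopper-Pearson) intervals. Centring by GC content used medians of 20 bins. Shared sequence was counted as 50-base stretches found in transcripts of other genes, and 51 Zfp genes shared over 10%. Exons overlapped another gene over more than 10% of their length in 31, and whether counting used strand is not stated.

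Finger stretches were not taken from genes of chromosome 18. Members and lists were chosen with earlier results of these data known. Genes were named when past 1.5-fold at 1 or more in both libraries (at most 15 each way), past 2-fold when under 1 in 1 library, among the 10 highest, next to the minimum, or on the list of known roles; others were named after their values were seen. Alternatives were a pseudocount, the minimum, the threshold, scaling, centring by GC content or length, and shared sequence. Steps were tested on simulated data. Python 3.11.15, numpy 2.4.6, pandas 2.3.3, scipy 1.17.1 and matplotlib 3.10.9 were used.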

Additional observations from a re-analysis of the deposited data

How the results depend on the processing

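No paired analysis was possible because each condition has 1 library, and no library could be left out. The median log2 ratio stayed above 0 under every alternative run, from 0.043 to 0.139, but depended on level and GC content. With an FPKM of at least 5, 77 Zfp genes had a median of 0.0426, with 41 above 0, 2 over 1.5-fold higher and 0 lower, and differed by 0.0178 from genes of similar FPKM. With 1 in both libraries, 7 were higher and 2 lower, and with no minimum 56 and 20 of 338, with 211 above 0. A pseudocount of 1 left 4 higher and 1 lower, and a 2-fold threshold 2 and 1. Without genes sharing over 10% of their sequence 2 were lower. With 1 in both libraries, 1.79% of all 9562 genes were over 1.5-fold higher and 3.75% lower. For the other settings the shares over all genes are not given here, so those counts have no background beside them. With no minimum, the set also holds genes listed in 1 library only, whose ratio depends on the floor of 0.01. Centring by GC content gave 8 higher, a median of 0.0607 and a difference of 0.0740 from genes of similar FPKM. That difference was 0.0538 against genes nearest in GC content and 0.0572 against those nearest in both, comparisons added after seeing the data. Scaling each library by its summed FPKM turned the Zscan and Zkscan median to 0.0165. Of 434 values of 43 named genes under the alternatives, 11 changed sign, 8 of them on centring by GC content, and 415 stayed inside the counting interval. Changing the minimum or leaving out shared sequence cannot alter a gene's own ratio, and a pseudocount cannot change its sign. The 434 values include these settings, so the counts do not measure how stable the ratios are. The sign changes were in 9 genes within 0.24 of 0 (*Zfp26*, *Zfp330*, *Zfp410*, *Zfp433*, *Zfp592*, *Zfp597*, *Zfp644*, *Zfp687* and *Zfp706*). For genes with few reads the intervals are wide, and the spread between cultures is unknown.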

Other observations

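The 135 Zfp genes below the minimum were described apart, since their reads are few. Of these, 115 were listed in both libraries, 12 in Eomes-overexpressing cells alone and 8 in control alone. The 89 that were at 0.1 or more in both had a median log2 ratio of 0.19, with 53 above 0 and 32 below, against -0.11 over 1701 other genes in that range. *Zfp189* was at an FPKM of 0.46 with the empty vector and 0.91 with Eomes, and *Zfp97*, listed only in Eomes-overexpressing cells, was at 0.66. Both were chosen after their values were seen.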
